A study of Mus musculus with 2 samples.

Results

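The desmosomal cadherins are the adhesive proteins that hold neighbouring epithelial cells together at desmosomes. They comprise the desmogleins and the desmocollins, and in mice the ancestral desmoglein 1 gene is present as several closely related copies. Their members were selected by gene name, as all non-control probes on the arrays that carried the names Dsg1a, Dsg1b, Dsg1c, Dsg2, Dsg3, Dsg4, Dsc1, Dsc2 or Dsc3. All 9 genes were found, of 24323 named genes, and they were represented by 15 probes with 1 spot each. RNA of wild-type mice was measured on 1 array for tooth and 1 for skin, both labelled as postnatal day 0, whereas the study's methods give an age 1 day later. Neither tissue was treated, and the number of animals behind each array is not given in the sources used here. The study set normal tooth against normal skin because teeth of Sox21 knockout mice bear ectopic hairs. With 1 array per tissue there is no replicate error, no test was run, and no difference below has a replicate check.

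In a desmosome, the outer parts of desmogleins and desmocollins bind each other between cells. Their tails bind plakoglobin and plakophilins, which are tied through desmoplakin to the keratin filaments. In stratified epithelia the isoforms are layered. Dsg3 and Dsc3 are prominent in basal cells, Dsg1 and Dsc1 in the differentiating upper layers, and Dsg4 in the hair follicle. Dsg2 and Dsc2 are the widely expressed pair, present also in simple epithelia and in heart muscle. Desmoglein 1 and desmoglein 3 are the targets of the autoantibodies in pemphigus.

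The signal of each probe is given as the processed intensity of its spot and as a scaled level, which is the log2 intensity less the 75th percentile of the array. The difference is skin minus tooth on this log2 scale. A value after ± is the error that the extraction software assigned to the spot, or the combined error of both spots for a difference. It covers the measurement of the spot and leaves out dissection, RNA preparation, labelling and animals. The 75th percentile was 428 for tooth and 276 for skin. A probe whose spot the software called well above background is described as detected. Levels of different probes are not comparable, because each probe has its own binding strength, so only differences were compared between genes. A summed level, given for some marker lists, is weighted to the brightest probes and is not compared between lists.

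In skin all 9 genes were detected, and in tooth 7. Dsc1 and Dsg4 were the genes detected in skin only. Of the 17409 named genes detected in either tissue, 16011 were detected in skin, 16669 in tooth and 740 in skin only. Skin had the higher signal for Dsg1a, Dsg1b, Dsg1c, Dsg3, Dsg4, Dsc1 and Dsc3, and tooth for Dsg2 and Dsc2. The difference was at least 2-fold toward skin in 7 of 9 genes, compared with 14.2% of the 17409 named genes detected in either tissue. It was at least 2-fold toward tooth in 2 of 9, compared with 15.5%. At 4-fold these counts were 6 toward skin (7.41% of named genes) and 1 toward tooth (6.29%), and at 8-fold they were 5 (4.69%) and 0 (2.73%). The median difference of the 9 genes was 3.73, or 3.48 with dim values at their bound, and that of all named genes was -0.04. As both samples were whole tissue, fewer cells of a type and less RNA per cell cannot be told apart.

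**Figure D1:**
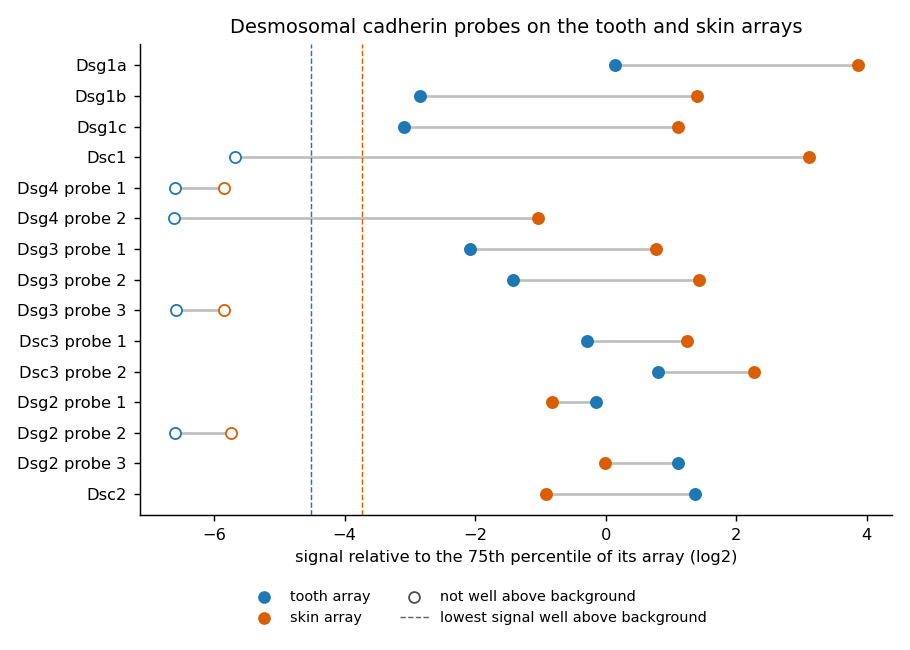
Scaled level (log2, relative to the 75th percentile of the array) of the 15 desmosomal cadherin probes on the tooth array (blue) and the skin array (orange), with a line joining the values of 1 probe. Open points were not detected, and the dashed lines mark the lowest signal called well above background on each array. Skin lies to the right of tooth for the detected probes of Dsg1a, Dsg1b, Dsg1c, Dsc1, Dsg4, Dsg3 and Dsc3, and to the left for those of Dsg2 and Dsc2.

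Among the 7 genes measured on both arrays, the copies of desmoglein 1 differed most. The Dsg1a probe (NM_010079, chr18:20501268-20501327, mm9) had an intensity of 471 ± 47.3 in tooth and 4043 ± 404 in skin. The scaled levels were 0.14 and 3.87, and the difference was 3.73 ± 0.20, or 13.3-fold. Dsg1a was thus detected in tooth too, at about the 75th percentile of that array.

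The Dsg1b probe (NM_181682, chr18:20568117-20568176) was at 59.4 ± 7.30 in tooth against 729 ± 73.1 in skin, which is 4.25 ± 0.23 apart on the log2 scale (19.02-fold). The Dsg1c probe (NM_181680, chr18:20442142-20442201) was at 50.2 ± 6.39 and 598 ± 59.99, a difference of 4.21 ± 0.23 (18.5-fold). The probes of all desmoglein 1 copies were therefore detected in both tissues and were brighter in skin by similar folds. Dsg1b and Dsg1c exceeded Dsg1a by 0.52 ± 0.31 and 0.47 ± 0.31, and normexp background correction, a model-based correction applied to the unprocessed spot signals, turned these gaps to -0.22 and -0.37. No order among the copies can be read from these values. The copies are close paralogs whose transcripts can share signal, so their separate values are uncertain. The 60-base probes themselves were unlike each other. Over the 97 pairs of member probes from different genes, the best ungapped alignment matched at most 27 bases and the longest shared run was 9 bases. Binding of 1 copy's transcript to the probe of another copy was not tested, since no transcript sequences were used here.

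Dsc1, the desmocollin of the upper epidermal layers, had the widest gap between the tissues. Its probe (NM_013504, chr18:20243332-20243391) was at 8.34 ± 4.95 in tooth, not detected, and at 2405 ± 241 in skin. The scaled level in skin was 3.12. Set against the lowest tooth signal called well above background (-4.52, log2), Dsc1 was at least 199-fold higher in skin. This bound holds for the processed intensities, and under normexp correction, which adds 50 to each intensity, the difference was 5.42 (log2), below the bound of 7.64. A more lenient call, signal positive and significantly above background, did include the tooth spot.

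Dsg4, which is mutated in the lanceolate hair mouse, was the other gene detected in skin only. The probe that detected it (NM_181564, chr18:20630260-20630319) was at 135 ± 14.3 in skin, while its tooth value of 4.35 ± 4.36 was a surrogate set by the software. Set against the same lowest tooth signal, Dsg4 was at least 11.1-fold higher in skin by these intensities, a bound of 3.48 (log2). The Dsg4 difference was 2.21 under normexp correction. Its other probe, designed on an Ensembl transcript (chr18:20623472-20623531), was detected in neither tissue. The call for Dsg4 therefore rests on 1 of its 2 probes.

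Markers of the layers in question moved in the same direction. For comparison with the counts below, 14.2% of the named genes detected in either tissue were at least 2-fold higher in skin. Of the 5 suprabasal epidermis genes (Krt1, Krt10, Lor, Ivl and Flg), 5 were at least 2-fold higher in skin. Their summed level, in units of the array's 75th percentile, was 6.002 in tooth and 3760 in skin, and Ivl was not detected in tooth. Of the 5 hair follicle genes (Krt31, Krt35, Krt85, Hoxc13 and Foxn1), 5 were at least 2-fold higher in skin, with summed levels of 14.9 and 135. This count was 4 of 5 under normexp correction, a median shift, quantile normalization and spike-in scaling, where Krt85 fell below the threshold. The Krt85 value (1.01) came from its brightest probe, which has no genome position in the files and whose tooth level (3.83, log2) makes up most of the summed level in tooth. The other Krt85 probes, both detected in both tissues, differed by 3.46 and 9.22. The part that these layers have in the differences of Dsg1, Dsc1 and Dsg4 was not tested.

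The basal pair was higher in skin by smaller amounts. By its brightest probe (NM_030596, chr18:20699734-20699793) Dsg3 was at 160 ± 16.6 in tooth against 745 ± 74.6 in skin. The difference was 2.85 ± 0.21, or 7.20-fold. A second probe of the same transcript (chr18:20698528-20698587) gave 101 ± 11.1 and 474 ± 47.7, a difference of 2.86 ± 0.22. These probes, which differed in brightness, gave differences 0.01 apart. Another Dsg3 probe, for an Ensembl transcript (chr18:20703771-20703830), was detected in neither tissue.

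Dsc3 was at 743 ± 74.4 in tooth and 1330 ± 133 in skin (NM_007882, chr18:20124142-20124201), a difference of 1.47 ± 0.20 or 2.77-fold. Its other probe, whose 60 bases span 2118 bases of the genome (chr18:20122029-20124146) and so cross a gap between aligned blocks, gave 352 ± 35.5 and 654 ± 65.6, a difference of 1.53 ± 0.21. Both probes lay above 2-fold. Scaling by the control RNAs added to each sample (spike-in scaling) lowered the Dsc3 difference to 0.85, below 2-fold.

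**Figure D2:**
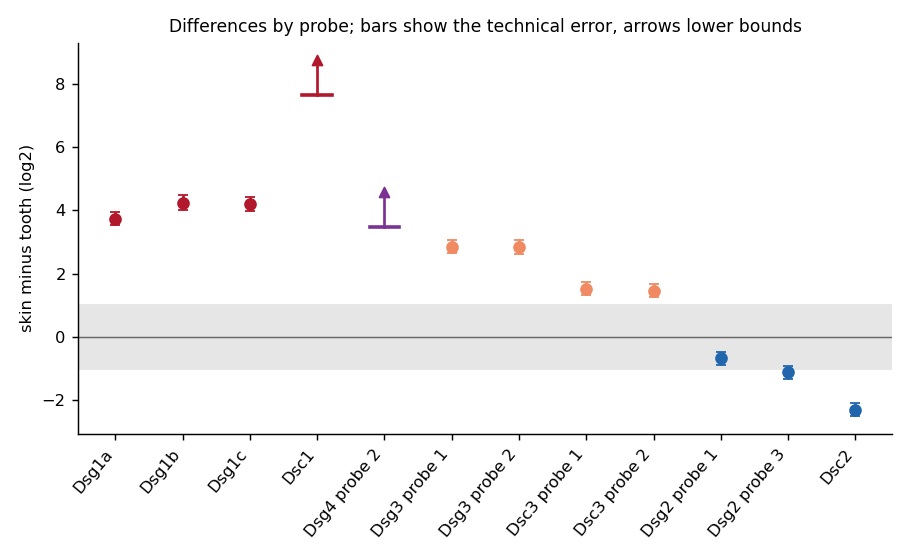
Skin minus tooth difference (log2) for the 12 desmosomal cadherin probes detected in either tissue, coloured by isoform number. Points carry the combined technical error of both spots as bars, and arrows start at the lower bound of genes not detected in tooth. The grey band is the 2-fold range, in which 1 Dsg2 probe (-0.67) lies.

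The widely expressed pair was higher in tooth. Dsc2 was at 1110 ± 111 in tooth and 146 ± 15.5 in skin (NM_013505, chr18:20189299-20189358). The scaled levels were 1.38 and -0.92, and the difference of -2.29 ± 0.21 made Dsc2 4.90-fold higher in tooth. Of 15271 named genes measured on both arrays, 470 had a difference at least as far toward tooth. Dsc2 was 1 of 5 members with a single probe, so its value could not be set beside another probe.

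Dsg2 was at 921 ± 92.3 in tooth and 275 ± 28.0 in skin by its brightest probe (NM_007883, chr18:20761177-20761236), a difference of -1.11 ± 0.21 or 2.16-fold toward tooth. A second probe of that transcript (chr18:20737628-20737687) was at 388 ± 39.0 and 157 ± 16.3, a difference of -0.67 ± 0.21. The 2 probes differed by 0.44, which is wider than the median gap of 0.26 over the 3241 genes with 2 such probes and within their 90th percentile of 0.94. Both probes were brighter in tooth, but only 1 passed 2-fold. By the brightest probe, 1632 of the 15271 named genes measured on both arrays had a difference at least as far toward tooth. The remaining probe (chr18:20743861-20743920) was detected in neither tissue. Normexp correction gave -0.96 for Dsg2, and the mean of its detected probes gave -0.89, so the 2-fold call is marginal.

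Among the 7 genes measured on both arrays, the order from skin to tooth was Dsg1b, Dsg1c, Dsg1a, Dsg3, Dsc3, Dsg2 and Dsc2. Neighbours within the desmoglein 1 group lay within 2 technical errors of each other. The gaps from Dsg1a to Dsg3 (0.89 ± 0.29), from Dsg3 to Dsc3 (1.38 ± 0.29), from Dsc3 to Dsg2 (2.59 ± 0.29) and from Dsg2 to Dsc2 (1.18 ± 0.29) were wider than that. Whether they exceed the spread between animals cannot be told.

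Contrasts between members do not depend on a constant shift of a whole array, because such a shift cancels. Quantile normalization and background correction are not constant shifts and can change them. From tooth to skin, Dsg3 gained 15.6-fold relative to Dsg2, a contrast of 3.96 ± 0.29 (log2). The contrast of Dsg1a to Dsg2 was 4.85 ± 0.29, or 28.8-fold. Among desmocollins, Dsc3 gained 13.6-fold relative to Dsc2 (3.76 ± 0.29). Over 12 processing alternatives the contrast of Dsg3 to Dsg2 ranged from 2.46 to 3.96, that of Dsg1a to Dsg2 from 4.04 to 4.85 and that of Dsc3 to Dsc2 from 3.22 to 3.81. The signals of the family were thus divided unequally between the tissues in both subfamilies.

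**Figure D3:**
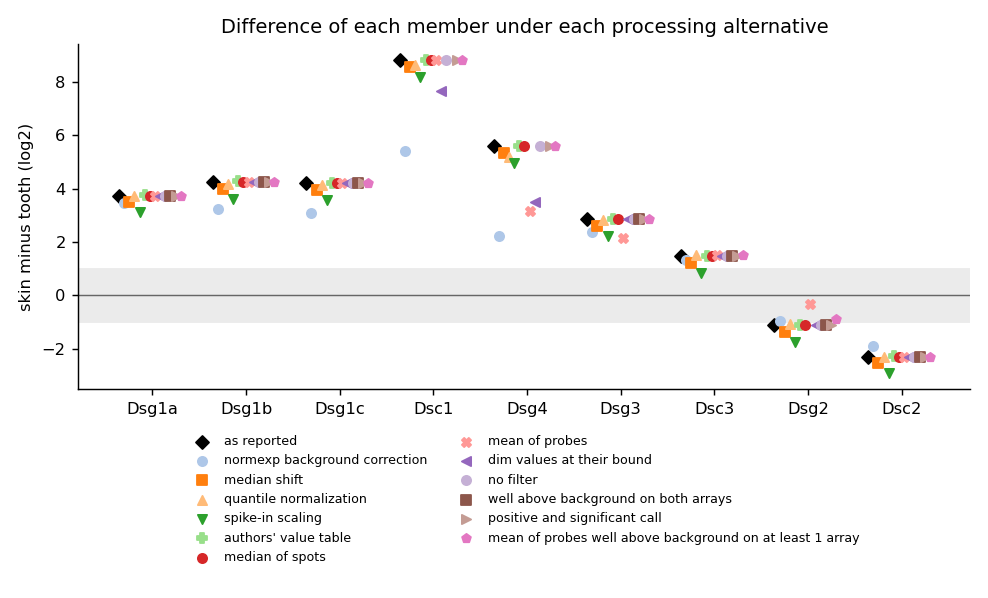
Skin minus tooth difference (log2) of each desmosomal cadherin as reported (black diamonds) and under each processing alternative (other symbols), with the 2-fold range in grey. For Dsc1 and Dsg4 the diamonds use the dim tooth value as measured. No gene changed sign. Dsc3 entered the 2-fold range under spike-in scaling, and Dsg2 did so under normexp correction and both means of probes.

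The epithelial content of the tissues was examined next, from Krt5, Krt14, Krt8, Krt18, Epcam, Trp63, Itga6 and Itgb4, a list of 8 genes. All were detected on both arrays. Their summed level was 647 in tooth and 1126 in skin, but Krt5 (8.82 and 9.76, log2) made up most of both sums, so they mainly follow that gene. The median difference was -0.02, or -0.64 under spike-in scaling. Differences were within 2-fold for 6 of them, compared with 12252 of the 17409 named genes detected in either tissue. Krt14 (1.19) was higher in skin, and Krt18 (-2.73), a keratin of simple epithelia, was higher in tooth. Itga6 was counted as within 2-fold by its brightest probe (-0.20), but its other probe, also detected in both tissues, differed by -4.39. With the mean of probes 5 genes were within 2-fold, 2 were on the tooth side, and the median was -0.21. With the median of the brightest probes taken off, the member differences moved by 0.02. Referred instead to the basal keratins Krt5 and Krt14 (1.07), Dsg1a was at 2.67, Dsg3 at 1.78 and Dsc3 at 0.40, while Dsg2 and Dsc2 were at -2.18 and -3.36. Dsc3 was therefore the only member whose side of the 2-fold line changed with this reference.

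The intracellular and accessory desmosome genes, as a list of 9, were all detected in both tissues. Skin was higher by at least 2-fold for 8 of them, compared with 14.2% of the 17409 named genes detected in either tissue. Tooth was higher by at least 2-fold for 0, compared with 15.5%, and 1 was within 2-fold. The median difference was 2.21, and that of all named genes was -0.04. Plakoglobin (Jup), which binds the cadherin tails, differed by 2.69 ± 0.23 (-2.64 in tooth and 0.04 in skin). Desmoplakin (Dsp), the link to keratin filaments, differed by 1.77 by its brightest probe and by 3.13 by its other probe.

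Of the plakophilins, armadillo proteins that cluster desmosomal components, Pkp1 differed by 2.21 ± 0.20, Pkp2 by 1.99 ± 0.22 and Pkp3 by 0.94 ± 0.20. Pkp2, like Dsg2 and Dsc2, is also known from heart desmosomes, but its signal was higher in skin. Perp, a tetraspan protein of the desmosome, differed by 1.28 ± 0.20. The plakins Evpl and Ppl differed by 2.29 and 2.62. Corneodesmosin (Cdsn), the glycoprotein added to desmosomes in the cornified layer, differed by 8.95 ± 0.21, with levels of -1.92 and 7.03. All 9 were higher in skin under each of the 12 alternatives. Of the 17409 named genes detected in either tissue, 8278 were higher in skin in the main processing. The count at least 2-fold higher in skin fell to 7 under quantile normalization (13.1% of named genes) and under spike-in scaling (9.03%).

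Genes of the adherens junction, the actin-linked junction of the same cells, were compared as another list. E-cadherin (Cdh1) differed by 0.06 ± 0.07 and P-cadherin (Cdh3) by 0.53 ± 0.20. The catenins Ctnna1, Ctnnb1 and Ctnnd1 differed by -0.13, -0.77 and 0.32. N-cadherin (Cdh2), the classical cadherin of mesenchymal and neural cells, was the exception, at -4.41 ± 0.21 or 21.3-fold higher in tooth. In all, 5 of 6 genes were within 2-fold, with a median of -0.03. Of the 17409 named genes detected in either tissue, 12252 were within 2-fold. Under spike-in scaling and a median shift 4 of 6 were within 2-fold and 2 were on the tooth side, and under spike-in scaling 0 of 6 were above zero.

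**Figure D4:**
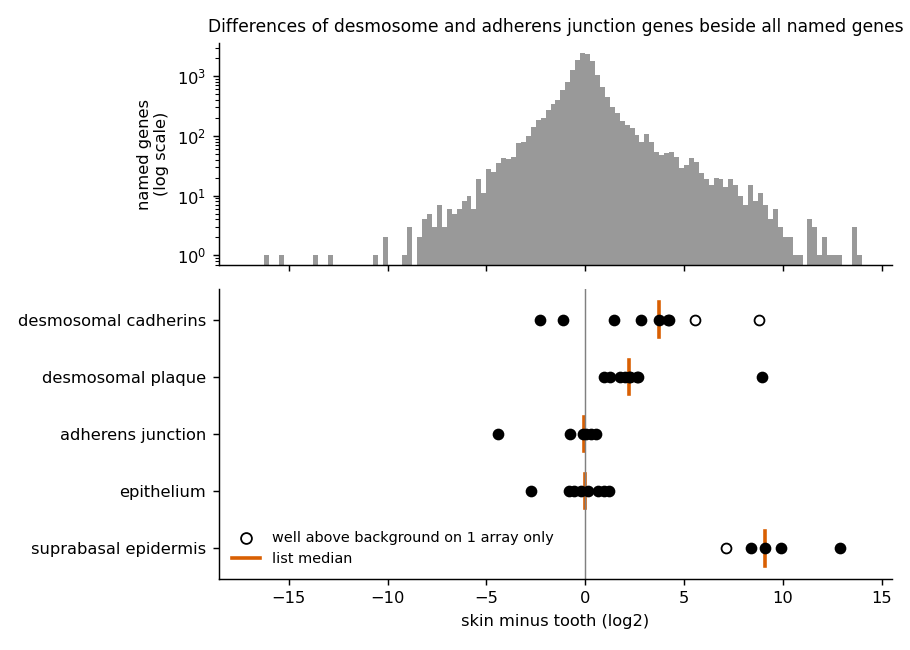
Upper panel, number of named genes (log axis) by skin minus tooth difference (log2), for the 17409 genes detected in either tissue. Lower panel, the differences of single genes in 5 lists, with open points for genes detected in 1 tissue and orange bars for list medians (3.73 for the desmosomal cadherins, 2.21 for the desmosomal plaque and -0.03 for the adherens junction). Dim values are drawn as measured. The cadherins are spread on both sides of 0, whereas the plaque genes all lie above it.

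All 9 desmosomal cadherin genes lie in a single cluster on chromosome 18. Their probes span 639 kb (chr18:20122029-20761236, mm9), in the order Dsc3, Dsc2, Dsc1, Dsg1c, Dsg1a, Dsg1b, Dsg4, Dsg3 and Dsg2. Probe coordinates run on the minus strand for the 3 desmocollins and on the plus strand for the 6 desmogleins. The genes with tooth-higher signal were not adjacent. Dsc2 lay between Dsc3 and Dsc1, both higher in skin, and Dsg2 formed the end of the cluster next to Dsg3. The run from Dsc1 to Dsg3 held 6 successive genes that were higher in skin by at least 7.20-fold in the main processing. Over the alternatives the lowest differences of Dsg3 and Dsg4 were 2.15 and 2.21 (log2), which are below that fold. Another 2 probes within the span, neither with a gene name and 1 described as a Dsg2 cDNA, were detected in neither tissue.

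The nearest named genes beyond Dsg2 differed in either direction or were not detected. Ttr, the transthyretin gene 67.3 kb away, was detected in neither tissue. B4galt6, a galactosyltransferase gene of glycolipid synthesis, was at least 9.26-fold higher in tooth by its brightest probe, and its other probe differed by -2.68. Under normexp correction the difference of B4galt6 was -1.60, smaller than that bound. Trappc8 (0.32) and Rnf138 (-0.47) were within 2-fold, and Rnf125 differed by 1.26 (0.86 under normexp correction). Under spike-in scaling Trappc8 was at -0.30, Rnf125 at 0.63 and Rnf138 at -1.09. On the side of Dsc3 the nearest named probes were more than 2729 kb away. Of the 5 nearest genes there, 4921533I20Rik, Gm15328 and Chst9 were detected in neither tissue, 9430011C21Rik differed by -1.10 (-0.28 under normexp correction), and Cdh2 was the other gene detected.

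**Figure D5:**
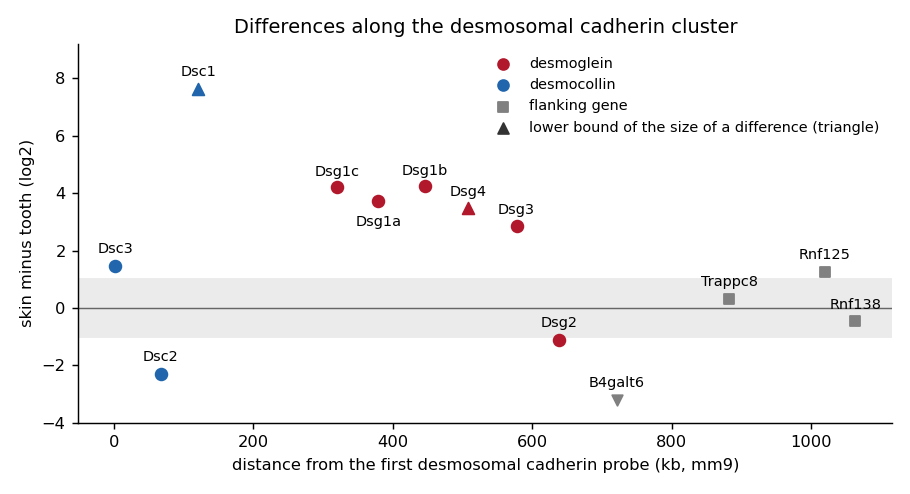
Skin minus tooth difference (log2) of the desmosomal cadherins and of the 4 detected flanking genes beyond Dsg2, against the distance in kb from the first member probe. Red marks desmogleins, blue desmocollins and grey flanking genes, triangles mark bounds (Dsc1, Dsg4 and B4galt6), and the grey band is the 2-fold range. Dsc2 and Dsg2 lie below the band while the 6 genes from Dsc1 to Dsg3 lie above it.

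Other markers described the composition of the samples. The ameloblast genes Amelx, Ambn and Enam were all detected in tooth and 0 of 3 in skin, with a summed level of 2143 in tooth. The odontoblast and bone genes Dspp, Dmp1 and Sp7 were likewise detected in tooth alone, with a summed level of 239. The skin values of both lists lay below detection and give no level. Of the striated muscle genes (Actn2, Myh3, Myh8, Ttn and Des), 5 of 5 were higher in skin by 2-fold or more. Their summed levels were 5.79 and 64.1, mostly from Myh8, of which another probe differed by 0.94. Of the melanocyte genes (Tyr, Dct, Pmel and Mlana), 4 of 4 were also higher in skin by 2-fold or more. Their summed levels were 2.26 and 160, mostly from Dct. Over all named genes detected in either tissue, 14.2% were at least 2-fold higher in skin. The part of these cell types in the cadherin differences was not tested. The 6 housekeeping genes differed by -0.52 to 0.44, and 1 of them was at least 2-fold higher in tooth under spike-in scaling.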

How the data were processed

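Per the labels, total RNA was purified on columns and cyanine-labelled cRNA was hybridised to Agilent whole-genome mouse arrays, 1 per tissue. The deposited spot intensities came from Agilent Feature Extraction 10.7.3.1, per the file headers: background had been subtracted, trends within the array removed, and dim values replaced by surrogates. The deposited yes-or-no calls cover other properties of each spot (outlier, saturated, above background). The authors also deposited a table whose values are the ratio of processed intensity to a constant (431 in tooth, 275 in skin). It was used as an alternative.

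Spots called outliers were left out (none was a member), log2 values were taken, spots of a probe were averaged, and the 75th percentile over the non-control probes was subtracted. No spot was saturated. Detection required the well-above-background call in more than 50% of a probe's spots, and held for 56.7% of 55675 probes in tooth and 52.5% in skin. The number of arrays limits the precision. The brightest probe stood for a gene. Accessions matched RefSeq (GRCm38.p6) for 82.1% of named probes. The others are named as on the array. Coordinates are mm9, and exons and UTRs were not analysed here. A bound set the bright value against the lowest detected signal of the other array, or against the dim probe's own signal where that was higher (B4galt6). Some undetected signals lay above that lowest detected signal, so a bound is not a strict limit. Technical errors were taken from the deposited error of each processed intensity. Protein sequences were not analysed here.

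Python 3.11.15, pandas 2.3.3 and limma 3.58.1 (normexp, offset 50) were used. The array scaling and the difference per gene were tested on simulated data with a single, detected probe per gene. Detection calls, bounds, the choice among probes, background correction and technical errors were not part of that test. Named genes were the members, the lists given in the report, and the 5 nearest named genes on each side of the cluster. The members and lists were chosen with earlier results of these data known.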

Additional observations from a re-analysis of the deposited data

How the results depend on the processing

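No member changed sign in the 12 alternatives that gave its difference (11 for Dsg4 and Dsc1), of which the mean of detected probes was added after the data were seen. The count of cadherins at least 2-fold higher in skin stayed between 5 and 7 over 13 alternatives. It was 6 under spike-in scaling and at the 4-fold threshold, and 5 when the 2 genes dim in tooth were left out. The count toward tooth was 1 instead of 2 under normexp correction, the mean of probes, the mean of detected probes and the 4-fold threshold, because Dsg2 was then below the threshold. The median difference of the members (3.73) was 2.35 under normexp correction, 3.49 under a median shift, 3.11 under spike-in scaling, 3.16 with the mean of probes, 3.48 with dim values at their bound and 2.85 over the 7 genes well above background on both arrays. In the other 6 alternatives it moved by less than the median technical error of the members (0.21). Single members ranged from 3.11 to 3.75 for Dsg1a, 3.23 to 4.27 for Dsg1b, 3.08 to 4.22 for Dsg1c, 2.15 to 2.87 for Dsg3, 2.21 to 5.60 for Dsg4, 5.42 to 8.82 for Dsc1, 0.85 to 1.505 for Dsc3, -1.74 to -0.31 for Dsg2 and -2.92 to -1.91 for Dsc2. Normexp correction gave the lowest values of Dsc1 and Dsg4 (8.80 and 5.58 with their dim tooth values as measured), so these sizes depend on the treatment of dim spots. Causes of the other shifts were not tested. Spike-in scaling moved the median named gene by -0.62, the median shift by -0.25 and the absence of a filter by 0.22. Under that scaling the 2-fold share of named genes was 9.03% toward skin and 32.4% toward tooth. No paired analysis was possible because each tissue had 1 array, and no replicate could be left out.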
